A study of Mus musculus with 9 samples.

Results

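Blood clotting runs as a cascade in which circulating proenzymes cut and activate one another until thrombin turns fibrinogen into fibrin. Plasma inhibitors and endothelial receptors hold it in check, and plasmin dissolves the clot. Most of these plasma proteins are made by hepatocytes, and several need vitamin K dependent carboxylation of glutamate before they leave the cell. The genes described here are 37 coagulation and fibrinolysis factors named in a list. Of the 37 genes, 35 had a probe set with 1 gene symbol among the 19938 genes measured, and each was read from the brightest such probe set by its mean across the 9 arrays. Klkb1, the gene of plasma prekallikrein, was covered only by a probe set that also names Cyp4v3. Serpine2, the gene of an inhibitor of thrombin in tissues, had no listed probe set. Neither is given a value. By role the measured genes were 16 procoagulant genes, 9 anticoagulant genes, 5 fibrinolytic genes, 4 genes of the vitamin K cycle and of factor secretion, and the thrombin receptor gene F2r.

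RNA came from liver cells sorted for DsRed fluorescence and for absence of CD45 and Ter119, surface markers of leukocytes and erythroid cells. All mice were Cxcl12DsRed/+ on a C57BL/6 background, so every group carried the DsRed allele of the chemokine gene Cxcl12 beside an allele without it. The groups were embryonic day E15.5, postnatal day 5 (P5) and postnatal day 10 (P10), with 3 arrays each, and no sex, pooling of animals or array date is given in the sources used here. Nothing in the labels says that arrays came from separate animals, so each p-value reflects spread among arrays, which may be technical. All values are log2 signals, differences are on the log2 scale with the standard error of the limma model (n = 3 arrays per stage), and a gene was called at a Benjamini-Hochberg adjusted p under 0.05 over all 19938 genes. The 3 comparisons share arrays, so their calls are not independent of one another.

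The sorted fractions held RNA of several liver cell types. Ptprc, which encodes CD45, had means of 5.05 to 5.11, under percentile 30 of the genes at all stages. Of 9 erythroid markers 5 were measured, with 3 lower and 0 higher at P5 and 3 lower and 1 higher (Alas2) at P10. Slc4a1 and Rhd, both lower after birth, had E15.5 means of 8.61 and 8.08. Cxcl12 was lower after birth (-0.81 ± 0.17 at P5 and -0.85 ± 0.17 at P10). The 12 stellate cell markers were all called lower at P5 and at P10, and their summed linear signal ran from 17567 to 20372 at E15.5, 5225 to 6938 at P5 and 4249 to 5452 at P10. Of 12 hepatocyte markers 11 were measured, and their sum ran from 29286 to 30212, 55190 to 58973 and 61515 to 66800 at the 3 stages. At E15.5 the hepatocyte markers Tat, Cyp2e1, Fbp1 and Tdo2 lay under percentile 30, whereas the mean of Alb was 13.14, 13.20 and 13.13 in stage order. In such mixed RNA, fewer cells of a type and less RNA per cell cannot be told apart. The part of the changing hepatocyte and stellate marker levels in the results on the clotting genes was not tested.

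The genes of the 3 fibrinogen chains lie side by side in the mouse genome, as Fgg, Fga and Fgb, and were lower at P10 than at P5 together. The stretches of up to 250 bases just upstream of these genes are shown because their sequences are where binding of liver transcription factors can be looked for, and that of F2r because its base composition is unlike theirs. They were taken from RefSeq on build GRCm38.p6, which covered 29 of the 37 genes, and transcribed bases were left out. In the fibrinogen stretches, capitals mark matches on either strand to GTTAAT, the core of sites of the hepatocyte factor HNF1, and to TTGCNNAA, a form of the site of C/EBP factors. Searches for AGTCCA, a core of HNF4 sites, and for TATAAA had no match in these 3 stretches. In the F2r stretch, capitals mark CG pairs.
Fga (chr3:83025903-83026152, plus strand): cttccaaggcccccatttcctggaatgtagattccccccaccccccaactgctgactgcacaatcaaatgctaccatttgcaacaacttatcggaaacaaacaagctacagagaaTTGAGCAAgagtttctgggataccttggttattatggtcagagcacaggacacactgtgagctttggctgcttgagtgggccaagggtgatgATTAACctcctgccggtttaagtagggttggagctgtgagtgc
Fgb (chr3:83049864-83050113, minus strand): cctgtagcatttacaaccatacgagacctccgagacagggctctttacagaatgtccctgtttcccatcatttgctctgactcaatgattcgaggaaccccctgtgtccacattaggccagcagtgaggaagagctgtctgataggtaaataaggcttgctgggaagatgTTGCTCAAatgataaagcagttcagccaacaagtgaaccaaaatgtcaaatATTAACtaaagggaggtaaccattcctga
Fgg (chr3:83007474-83007723, plus strand): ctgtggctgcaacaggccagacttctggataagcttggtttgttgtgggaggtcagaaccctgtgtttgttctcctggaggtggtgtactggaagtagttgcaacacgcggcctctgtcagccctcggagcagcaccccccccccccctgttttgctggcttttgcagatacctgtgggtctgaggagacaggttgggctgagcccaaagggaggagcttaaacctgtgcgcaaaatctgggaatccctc
F2r (chr13:95618467-95618716, minus strand): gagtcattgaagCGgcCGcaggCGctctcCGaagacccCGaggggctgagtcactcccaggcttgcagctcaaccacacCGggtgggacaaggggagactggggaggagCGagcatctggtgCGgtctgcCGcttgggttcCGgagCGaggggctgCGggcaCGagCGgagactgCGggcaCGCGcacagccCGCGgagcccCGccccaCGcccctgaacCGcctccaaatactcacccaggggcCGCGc

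Fga and Fgb each held 1 match to both motifs, and the matches did not overlap. In Fga the C/EBP match began 135 bases and the HNF1 match 43 bases before the gene's start. In Fgb they began 80 and 29 bases before it. No match was found in the Fgg stretch. Among all 32851 promoter windows of 250 bases, 6.43% held GTTAAT and 9.56% held TTGCNNAA. Among the 33 windows of 29 listed genes, 6 (18.2%) and 8 (24.2%) did. The other 2 motifs went the other way. AGTCCA was held by 11.5% of all windows and 3 of the 33 (9.09%), and TATAAA by 12.4% and 2 (6.06%). For these shares the windows were kept whole, so some may hold transcribed bases, and some genes had more than 1 window. The stretches of Fga, Fgb and Fgg held 2, 3 and 4 CG pairs, against 24 in that of F2r and 15 in the 250 bases upstream of Pros1. F3 and Mcfd2, neither called lower against E15.5, held 24 and 20. Ggcx and Tfpi, both lower after birth, held 11 in 221 bases and 3 in 234 bases. The median over all windows was 6. A match describes letters only, and no binding was measured.

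At P5, more of the genes were higher than lower against E15.5. Of the 35 measured genes, 18 were called higher and 7 lower, and 10 were not called. Among all genes, 35.6% were called, 17.9% higher and 17.7% lower. The median difference was 0.38 over the 35 genes and 0.03 over all genes. Of the 16 procoagulant genes 12 were higher and 0 lower by limma (none lower at an unadjusted p under 0.05 either). Mesothelial markers moved in the same interval, with 6 of 8 called higher and 1 lower and sums of 2872 to 3160 at E15.5 and 8112 to 9327 at P5 (1672 to 1867 and 2643 to 3440 without Krt18, the brightest marker), and their part in the rise was not tested. In the anticoagulant group 4 of 9 were higher and 3 lower, in the fibrinolytic group 1 of 5 was higher and 1 lower, and in the vitamin K and secretion group 1 of 4 was higher and 2 lower. At P10, 12 of the 35 genes were higher and 9 lower than at E15.5, against 20.1% and 18.6% of all genes (38.7% called in all), with medians of -0.03 over the 35 and 0.02 over all genes. Between P5 and P10, 9 of the 35 genes fell and 0 rose by limma, where 2.89% and 2.76% of all genes did (5.65% called in all). At an unadjusted limma p under 0.05, 19 of the 35 fell and 0 rose, against 1616 and 1995 of all 19938 genes. The medians for that interval were -0.36 over the 35 genes and -0.0015 over all genes.

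**Figure D1:**
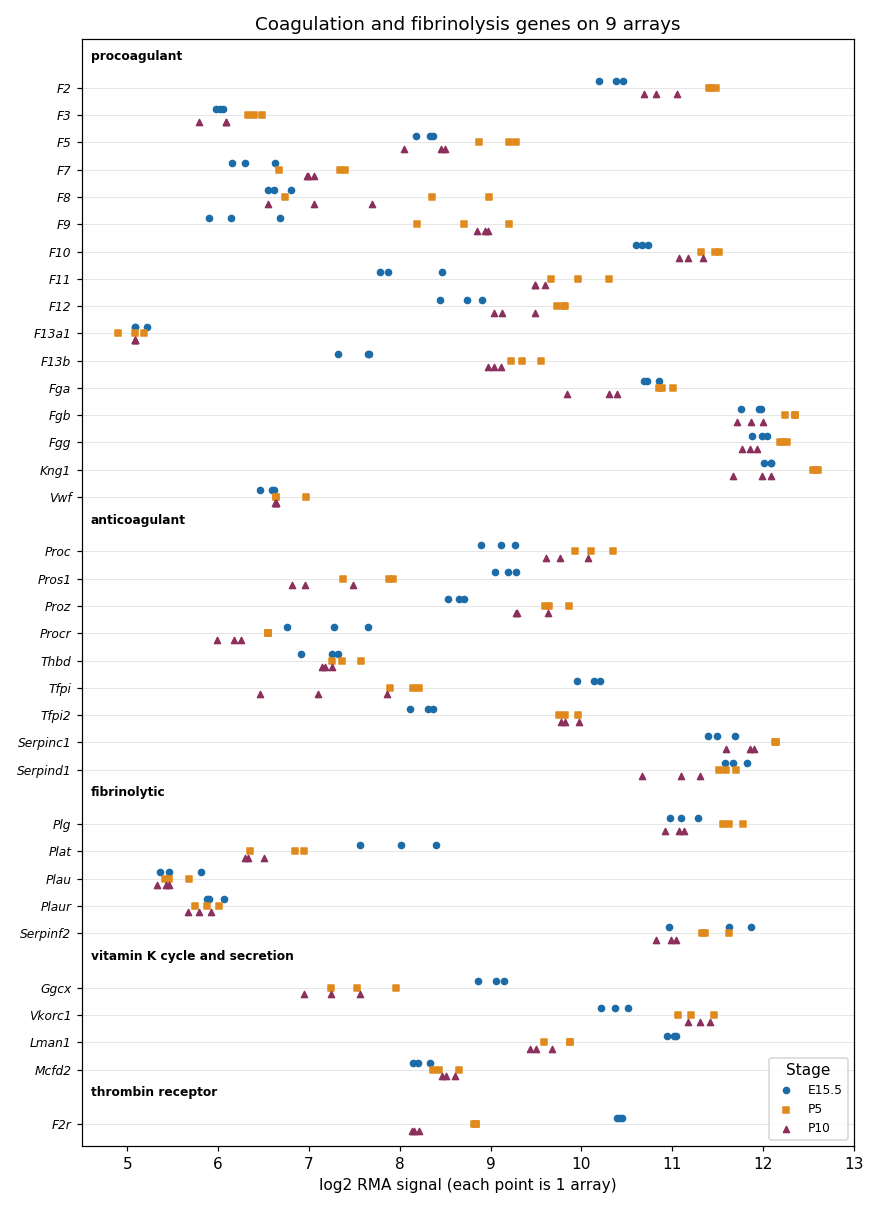
Log2 RMA signal of the 35 measured genes (horizontal axis) on each of the 9 arrays, by role, with E15.5 arrays as blue circles, P5 arrays as orange squares and P10 arrays as purple triangles. Each point is 1 array. F9, F11 and F13b lie to the right of E15.5 at both postnatal stages, and Tfpi, Pros1, Ggcx, Lman1 and F2r lie to the left.

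The genes of factors IX, XI and XIIIB rose more than the other procoagulant genes that were called. F9, the gene of the X-linked proenzyme that is missing in haemophilia B, read 6.69, 5.90 and 6.14 on the E15.5 arrays, 8.18, 8.71 and 9.21 on the P5 arrays and 8.85, 8.94 and 8.97 on the P10 arrays. All postnatal arrays lay above all E15.5 arrays, and the difference was 2.46 ± 0.27 (adjusted p = 0.000143) at P5, a 5.5-fold rise, and 2.68 ± 0.27 (adjusted p = 6.36e-05) at P10, a 6.41-fold rise. F11, whose product activates factor IX, read 7.88, 7.78 and 8.47 on the E15.5 arrays, 9.66, 9.96 and 10.30 on the P5 arrays and 9.49, 9.60 and 9.49 on the P10 arrays. It was higher at P5 by 1.93 ± 0.20 and at P10 by 1.49 ± 0.20, again without overlap with E15.5. F13b, the gene of the carrier subunit of fibrin-crosslinking factor XIII, read 7.66, 7.32 and 7.66 on the E15.5 arrays, 9.22, 9.35 and 9.55 on the P5 arrays and 9.12, 8.97 and 9.04 on the P10 arrays, differences of 1.83 ± 0.12 and 1.50 ± 0.12. P10 was not called against P5 for F9 (0.22 ± 0.27, adjusted p = 0.771), F11 (-0.44 ± 0.20, adjusted p = 0.305) or F13b (-0.33 ± 0.12, adjusted p = 0.169). F13a1, the gene of the catalytic subunit of factor XIII, lay under percentile 30 of the genes at all stages (4.90 to 5.22) and was not called.

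F2, which encodes prothrombin, and F12, which encodes the contact factor XII, were highest at P5. F2 read 10.38, 10.46 and 10.20 on the E15.5 arrays, 11.40, 11.48 and 11.43 on the P5 arrays and 11.06, 10.69 and 10.83 on the P10 arrays. The 3 stages did not overlap, with differences of 1.09 ± 0.10 (adjusted p = 6.29e-05) at P5, 0.52 ± 0.10 (adjusted p = 0.00383) at P10 and -0.58 ± 0.10 (adjusted p = 0.0168) from P5 to P10. The fall of F2 to P10 was not called without P5 array 2, P10 array 2 or P10 array 3 (adjusted p up to 0.0585). F12 read 8.74, 8.91 and 8.44 on the E15.5 arrays, 9.82, 9.73 and 9.81 on the P5 arrays and 9.49, 9.03 and 9.13 on the P10 arrays. Its rise was 1.09 ± 0.14 at P5 and 0.52 ± 0.14 at P10, and the P10 arrays lay below the P5 arrays without passing the test (-0.57 ± 0.14, adjusted p = 0.0614). The P10 rise of F12 was lost without E15.5 array 3 or P10 array 1 (adjusted p up to 0.0623), and its fall from P5 to P10 was called in 4 of 19 alternatives (adjusted p as low as 0.0325). F10, the gene of the proenzyme that forms prothrombinase with factor V, was higher at both postnatal stages (0.77 ± 0.085 and 0.53 ± 0.085). So was F7, the gene of the partner of tissue factor (0.78 ± 0.20 and 0.66 ± 0.20). F7, F10 and Proz, described with the anticoagulant genes, are neighbours in the genome. The F7 call at P5 ended without E15.5 array 1 or P5 array 1 (adjusted p up to 0.0558), and that at P10 without E15.5 array 1 or 3 or any 1 P10 array, or with the replicate number as a block (adjusted p up to 0.099).

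F5 and F3, which encode the cofactor factor V and tissue factor, the cell-bound starter of the cascade, rose at P5 and fell to P10. F5 read 8.34, 8.18 and 8.36 on the E15.5 arrays, 9.20, 8.88 and 9.28 on the P5 arrays and 8.49, 8.04 and 8.46 on the P10 arrays, with differences of 0.83 ± 0.15 at P5 and -0.79 ± 0.15 from P5 to P10, and P10 differed from E15.5 by 0.04 ± 0.15 (adjusted p = 0.878). For F3 the same differences were 0.38 ± 0.089, -0.41 ± 0.089 and -0.03 ± 0.089 (adjusted p = 0.861). F3 was much dimmer than F5, with stage means of 6.02, 6.40 and 5.99 at percentiles 36 to 43 of the genes. Its values on P10 arrays 1 and 2 were identical. The fall of F3 to P10 was not called in 14 of 19 alternative settings (adjusted p from 0.0326 to 0.108). That of F5 was lost when P5 array 1 was left out or only the P5 and P10 arrays were fitted (adjusted p up to 0.0667).

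The fibrinogen genes and Kng1, the gene of the contact cofactor kininogen, were high on every array. Fgb, the gene of the beta chain, read 11.76, 11.98 and 11.96 on the E15.5 arrays, 12.24, 12.35 and 12.35 on the P5 arrays and 12, 11.71 and 11.87 on the P10 arrays. Fgg, the gene of the gamma chain, read 11.88, 11.99 and 12.05 on the E15.5 arrays, 12.22, 12.18 and 12.26 on the P5 arrays and 11.86, 11.77 and 11.94 on the P10 arrays. For both the P5 arrays lay above those of the other stages. Fgb differed by 0.41 ± 0.092 at P5 and -0.45 ± 0.092 (adjusted p = 0.0287) from P5 to P10. The corresponding differences of Fgg were 0.25 ± 0.068 and -0.37 ± 0.068 (adjusted p = 0.019). Fga, the gene of the alpha chain, read 10.73, 10.69 and 10.86 on the E15.5 arrays, 10.89, 10.85 and 11.01 on the P5 arrays and 10.40, 9.84 and 10.30 on the P10 arrays. It was not called at P5 (0.16 ± 0.14, adjusted p = 0.418) and was lower at P10 than at E15.5 (-0.58 ± 0.14, adjusted p = 0.00944) and than at P5 (-0.74 ± 0.14, adjusted p = 0.0201). A further Fga probe set differed by -0.39 ± 0.21, -1.51 ± 0.21 and -1.12 ± 0.21 in the 3 comparisons, so the P10 decrease was larger there. Kng1 read 12.01, 12.09 and 12.09 on the E15.5 arrays, 12.58, 12.55 and 12.60 on the P5 arrays and 11.99, 11.67 and 12.09 on the P10 arrays, with a rise of 0.52 ± 0.10 at P5 and a fall of -0.66 ± 0.10 (adjusted p = 0.00925) to P10. The values of Fgb, Fgg and Kng1 lay near percentile 99 of the genes, which was 12.04 to 12.42 over the arrays, where differences may be understated. The Fgb call from P5 to P10 was lost in 8 of 19 alternatives (adjusted p up to 0.0902), that of Fgg without P5 array 1 or P10 array 1 or 2 (up to 0.0703), and that of Fga without P5 array 1 or with only the P5 and P10 arrays fitted (up to 0.0678). The P5 call of Fgg ended without E15.5 array 1 or P5 array 3 and after quantile normalisation (adjusted p up to 0.0743).

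**Figure D2:**
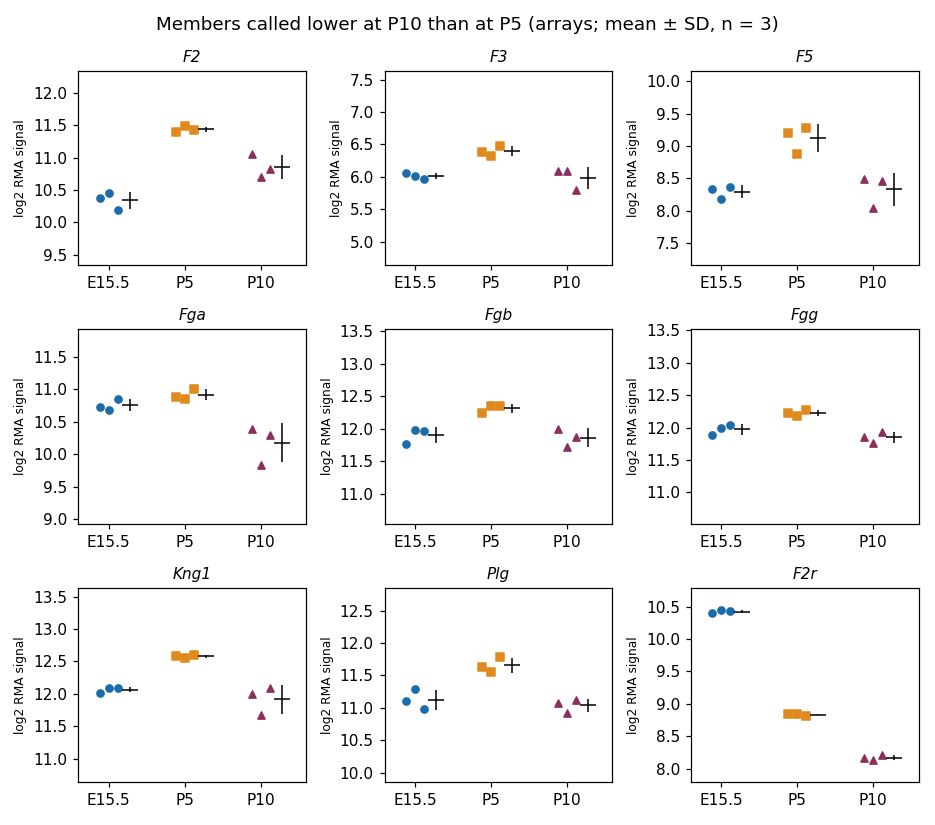
Log2 RMA signal of the 9 genes called lower at P10 than at P5 (vertical axis, 1 panel per gene, each spanning 3 log2 units) at the 3 stages, with points for arrays and a bar for the mean ± SD (n = 3). F2, F3, F5, Fgb, Fgg, Kng1 and Plg are highest on the P5 arrays, Fga is lowest at P10, and F2r is lower at each later stage.

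F8 and Vwf, the genes of factor VIII and of its plasma carrier von Willebrand factor, are known as products of endothelial cells. F8 read 6.80, 6.54 and 6.61 on the E15.5 arrays, 6.74, 8.36 and 8.99 on the P5 arrays and 6.55, 7.05 and 7.69 on the P10 arrays. P5 arrays 2 and 3 were high and P5 array 1 was like the E15.5 arrays, so the groups overlapped and F8 was not called (1.38 ± 0.53 (adjusted p = 0.0765) at P5 and 0.45 ± 0.53 (adjusted p = 0.568) at P10). The mean log2 signal over 12 endothelial markers had the same order within P5, at 6.42 on array 1, 7.72 on array 2 and 8.12 on array 3, and was 6.74 to 6.91 at E15.5 and 6.64 to 7.15 at P10. Their summed linear signal was 1153 on P5 array 1 and 3556 and 4077 on P5 arrays 2 and 3, against 1525 to 1748 at E15.5 and 1375 to 1924 at P10. Stab2, a scavenger receptor gene of sinusoidal endothelium whose product clears von Willebrand factor, read 7.15, 7.11 and 6.98 on the E15.5 arrays, 6.98, 8.78 and 9.13 on the P5 arrays and 7.55, 7.55 and 8.05 on the P10 arrays. With P5 arrays 2 and 3 both left out, a setting picked once the data had been seen, the F8 difference at P5 was 0.087 (adjusted p = 0.912), and without P5 array 1 it was called (2.02, adjusted p = 0.00247). The P5 difference was also called with the replicate number as a block (adjusted p = 0.048), after quantile normalisation, with ribosomal protein genes as the centre and with a filter at percentile 30. From P5 to P10 F8 differed by -0.93 ± 0.53 (adjusted p = 0.431), and without P5 array 1 it was called lower (-1.57, adjusted p = 0.0455). Whether endothelial content accounts for F8 was not tested. Vwf lay between 6.47 and 6.97 on all arrays and was not called in any comparison, although quantile normalisation called it higher at P5 (0.32, adjusted p = 0.0224) and P10 (0.28, adjusted p = 0.0328).

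**Figure D3:**
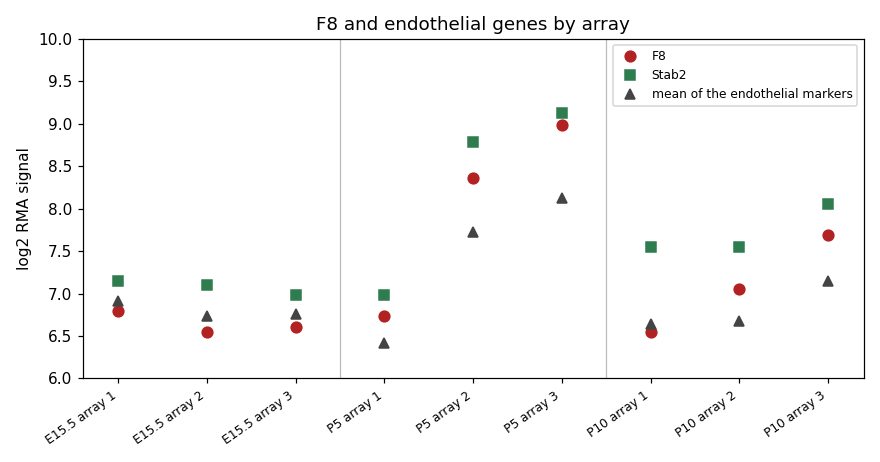
Log2 RMA signal (vertical axis) of F8 (red circles), Stab2 (green squares) and the mean of 12 endothelial markers (grey triangles) on each of the 9 arrays (horizontal axis, stages parted by lines). P5 arrays 2 and 3 are high for all 3 measures, and P5 array 1 is not.

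The anticoagulant genes moved both ways. Proc, Proz, Tfpi2 and Serpinc1 were higher at P5 than at E15.5, and Tfpi, Pros1 and Procr were lower. Tfpi, the gene of the inhibitor of the tissue factor complex, read 10.14, 9.96 and 10.20 on the E15.5 arrays, 7.89, 8.15 and 8.22 on the P5 arrays and 6.46, 7.10 and 7.86 on the P10 arrays. No postnatal array reached the E15.5 range, and the difference was -2.01 ± 0.30 (adjusted p = 0.000872) at P5, 4.04-fold lower, and -2.96 ± 0.30 (adjusted p = 6.91e-05) at P10, 7.78-fold lower. The P10 arrays varied among themselves (SD 0.70) and P10 was not called against P5 (-0.95 ± 0.30, adjusted p = 0.121), except without P10 array 3 (-1.31, adjusted p = 0.0154). Pros1, the gene of protein S, the cofactor of activated protein C, read 9.28, 9.04 and 9.19 on the E15.5 arrays, 7.92, 7.88 and 7.37 on the P5 arrays and 6.82, 6.96 and 7.49 on the P10 arrays. It was 2.73-fold lower at P5 (-1.45 ± 0.20, adjusted p = 0.000578) and 4.25-fold lower at P10 (-2.09 ± 0.20, adjusted p = 4.96e-05), with all E15.5 arrays above all others. P10 against P5 was not called (-0.64 ± 0.20, adjusted p = 0.118), though it was without P5 array 3 or P10 array 3 (adjusted p as low as 0.0463). Procr, the gene of the endothelial receptor of protein C, read 7.65, 6.76 and 7.27 on the E15.5 arrays, 6.55, 6.55 and 6.55 on the P5 arrays and 6.25, 5.98 and 6.18 on the P10 arrays. Its difference was -0.67 ± 0.19 (adjusted p = 0.0264) at P5 and -1.09 ± 0.19 (adjusted p = 0.00207) at P10. The 3 P5 values of Procr were identical, a tie that lowers its spread, and its P5 call was lost without E15.5 array 1, E15.5 array 3 or any 1 P5 array and with only those 2 stages fitted (adjusted p up to 0.0766).

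In the opposite direction, Tfpi2, a relative of Tfpi that inhibits plasmin and other serine proteases, read 8.31, 8.12 and 8.36 on the E15.5 arrays, 9.82, 9.96 and 9.75 on the P5 arrays and 9.78, 9.81 and 9.98 on the P10 arrays. It was 2.99-fold higher at P5 (1.58 ± 0.092, adjusted p = 3.91e-06) and 3.02-fold higher at P10 (1.59 ± 0.092, adjusted p = 2.57e-06), without overlap with E15.5. Proc, the gene of protein C, which when active destroys factors V and VIII, read 9.11, 9.27 and 8.90 on the E15.5 arrays, 9.93, 10.10 and 10.34 on the P5 arrays and 10.07, 9.61 and 9.77 on the P10 arrays. Proz, the gene of protein Z, a cofactor in the inhibition of factor X, read 8.71, 8.65 and 8.53 on the E15.5 arrays, 9.65, 9.60 and 9.87 on the P5 arrays and 9.63, 9.28 and 9.29 on the P10 arrays. All postnatal arrays lay above E15.5 for both, with differences at P5 and P10 of 1.03 ± 0.15 and 0.72 ± 0.15 for Proc and 1.08 ± 0.12 and 0.77 ± 0.12 for Proz. Serpinc1, the gene of antithrombin, was higher at P5 (0.61 ± 0.10) and not called at P10 (0.26 ± 0.10, adjusted p = 0.0833). Serpind1, the gene of heparin cofactor II, was not called at P5 (-0.09 ± 0.15, adjusted p = 0.713) and was lower at P10 (-0.67 ± 0.15, adjusted p = 0.0077). Thbd, the gene of thrombomodulin, the endothelial receptor that turns thrombin into an activator of protein C, read 6.92 to 7.58 over the arrays and was not called, except at P5 after quantile normalisation (0.36, adjusted p = 0.0345). From P5 to P10, 0 of the 9 anticoagulant genes were called by limma, while 5 were lower at an unadjusted p under 0.05. By that measure 1616 of all 19938 genes were lower. Their median difference in that interval was -0.36, and that of the procoagulant genes was -0.43. Serpind1 (-0.58 ± 0.15, adjusted p = 0.0686) was called lower in 4 of 19 alternatives and Serpinc1 (-0.36 ± 0.10, adjusted p = 0.0901) in 1.

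In the fibrinolytic group, the genes of the plasmin precursor and of its activator moved apart. Plg, the plasminogen gene, read 11.10, 11.29 and 10.98 on the E15.5 arrays, 11.63, 11.56 and 11.78 on the P5 arrays and 11.07, 10.92 and 11.13 on the P10 arrays. It rose at P5 (0.53 ± 0.10, adjusted p = 0.00318), fell to P10 (-0.61 ± 0.10, adjusted p = 0.0117) and was not called at P10 against E15.5 (-0.08 ± 0.10, adjusted p = 0.584). Plat, the gene of tissue plasminogen activator, read 8.40, 7.57 and 8.01 on the E15.5 arrays, 6.35, 6.95 and 6.85 on the P5 arrays and 6.51, 6.33 and 6.30 on the P10 arrays. It was lower at P5 (a difference of -1.28 ± 0.22, adjusted p = 0.00206) and at P10 (-1.61 ± 0.22, adjusted p = 0.000442), and no postnatal array reached the E15.5 range. Serpinf2, the gene of the plasmin inhibitor alpha 2-antiplasmin, was not called (-0.05 ± 0.21 (adjusted p = 0.892) at P5 and -0.54 ± 0.21 (adjusted p = 0.0778) at P10), with E15.5 array 3 at 10.96 against 11.62 and 11.86 on the other E15.5 arrays. Without E15.5 array 3 its P10 difference was -0.80 (adjusted p = 0.00183). Plau, the urokinase gene, and Plaur, the gene of its receptor, read 5.32 to 5.81 and 5.67 to 6.06 and were not called. The mean of Plau lay under percentile 30 of the genes at every stage.

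The vitamin K cycle and the cargo receptor for factors V and VIII each had 1 gene that fell and 1 that rose. Ggcx encodes the carboxylase that modifies glutamates with reduced vitamin K, and Vkorc1 encodes the reductase, the target of warfarin, that regenerates it. Ggcx read 9.15, 9.06 and 8.86 on the E15.5 arrays, 7.96, 7.53 and 7.24 on the P5 arrays and 7.25, 6.95 and 7.56 on the P10 arrays. It was 2.72-fold lower at P5 (-1.44 ± 0.21, adjusted p = 0.000688) and 3.41-fold lower at P10 (-1.77 ± 0.21, adjusted p = 0.000162). Vkorc1 read 10.37, 10.22 and 10.52 on the E15.5 arrays, 11.46, 11.21 and 11.07 on the P5 arrays and 11.42, 11.31 and 11.17 on the P10 arrays, and all postnatal arrays lay above E15.5 (differences of 0.88 ± 0.12 and 0.93 ± 0.12). Of the known substrates of the carboxylase among these genes, a grouping made after their values were seen, F2, F7, F9, F10, Proc and Proz were higher at P5 and P10 and Pros1 was lower. Lman1 and Mcfd2 encode the receptor and cofactor that carry factors V and VIII from the endoplasmic reticulum to the Golgi. Lman1 read 11.02, 11.04 and 10.95 on the E15.5 arrays, 9.87, 9.59 and 9.88 on the P5 arrays and 9.67, 9.44 and 9.50 on the P10 arrays. It was lower at P5 (-1.22 ± 0.096, adjusted p = 2.19e-05) and at P10 (-1.47 ± 0.096, adjusted p = 5.38e-06), with all E15.5 arrays on top. Mcfd2 differed by 0.26 ± 0.09 (adjusted p = 0.0542) at P5 and 0.30 ± 0.09 (adjusted p = 0.0276) at P10. At P5 it was called in 6 of 19 alternatives (adjusted p as low as 0.0139), the replicate block among them (adjusted p = 0.0415). The P10 call of Mcfd2 was lost in 5 of 19 alternatives, E15.5 array 1 or 2 and P10 array 1 or 3 left out among them (adjusted p up to 0.0919). From P5 to P10, 0 of these 4 genes were called by limma, and 1, Lman1, was lower at an unadjusted p under 0.05.

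F2r, the gene of PAR1, the receptor through which thrombin acts on cells, fell in each interval. It read 10.40, 10.44 and 10.43 on the E15.5 arrays, 8.84, 8.84 and 8.82 on the P5 arrays and 8.16, 8.14 and 8.22 on the P10 arrays, so the 3 stages were wholly separate. It was 3-fold lower at P5 (-1.59 ± 0.049, adjusted p = 1.42e-07), 4.76-fold lower at P10 (-2.25 ± 0.049, adjusted p = 1.76e-08) and fell by 0.66 from P5 to P10 (SE 0.049, adjusted p = 0.000594). The values of F2r on P5 arrays 1 and 2 were identical, a tie that lowers its spread and so these SEs and p-values. Among the 9 genes that fell from P5 to P10, F2r was the one still called without P5 arrays 2 and 3 (-0.67, adjusted p = 0.0168), a fit that leaves 1 P5 array and assumes it varies like the other stages. The stellate cell markers, whose summed signal is given above, also fell, as did the platelet chemokine genes at P5 (Pf4 -2.72 ± 0.40 and Ppbp -2.69 ± 0.30). For the megakaryocyte and platelet list, 6 of 10 markers were measured, 3 were lower at P5, and their sum ran from 845 to 1478 at E15.5, 449 to 523 at P5 and 451 to 519 at P10, with Pf4 and Ppbp under percentile 30 at P5. Their part in the F2r difference was not tested.

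**Figure D4:**
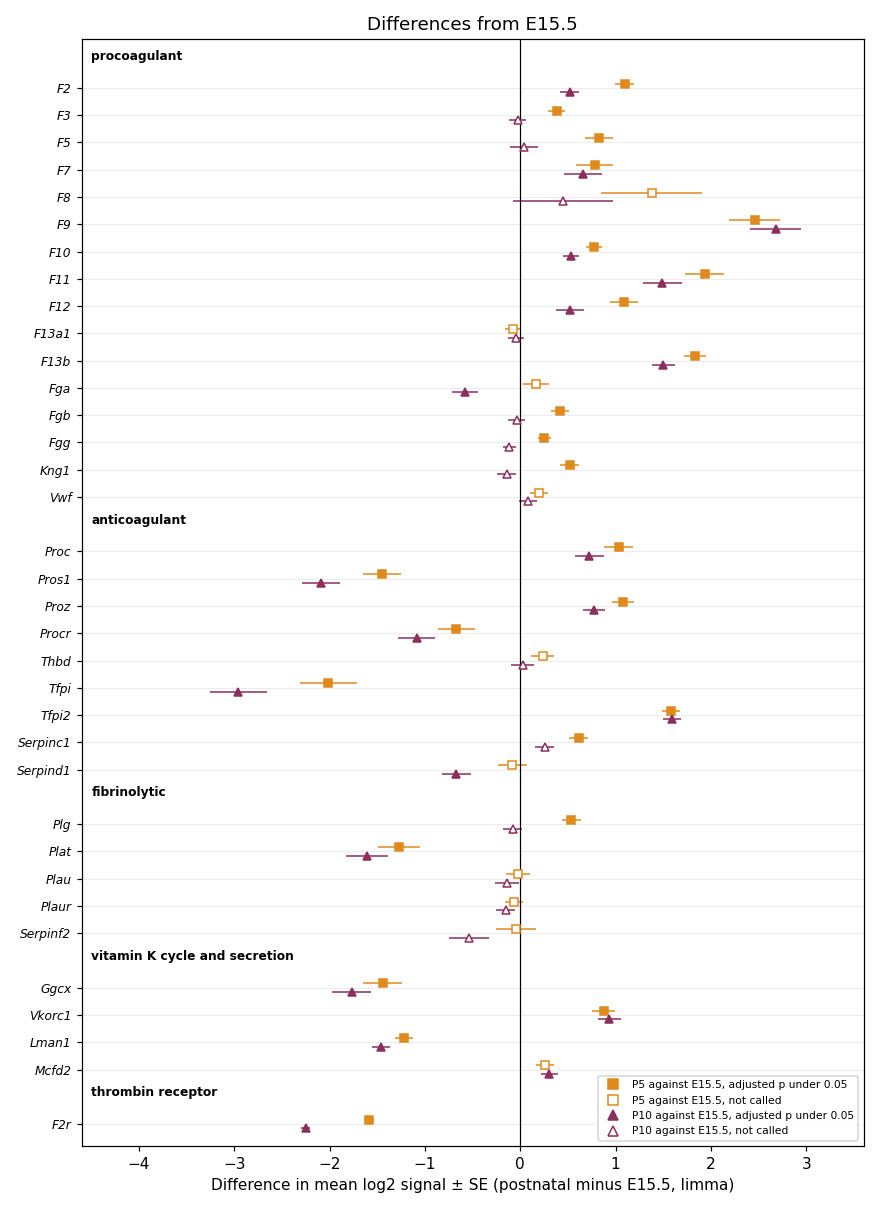
Difference in mean log2 signal from E15.5 (horizontal axis, ± SE from limma, n = 3 arrays per stage) for the 35 measured genes by role, with P5 as orange squares and P10 as purple triangles. Filled symbols were called, and procoagulant symbols lie mostly right of 0, F2r lies left of 0, and the other roles lie on both sides.

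The 9 genes that fell from P5 to P10 were F2, F3, F5, Fga, Fgb, Fgg, Kng1, Plg and F2r. The summed hepatocyte marker signal was 55190 to 58973 at P5 and 61515 to 66800 at P10. Of 11 hepatocyte markers, 3 were called higher (Tat, Pck1 and Tdo2), 1 was called lower (Apob, -0.97 ± 0.14) and 7 were not called. The median difference of the 11 markers was 0.05, so the higher sum was not shared by most of them. Of 12 stellate cell markers, 3 were called lower (Pdgfra, Des and Lhx2) and 0 higher. The mesothelial markers fell in the same interval, with 7 of 8 called lower and sums of 8112 to 9327 at P5 and 4757 to 5535 at P10. Most of that sum was Krt18, the marker that was not called, and without it the sums were 2643 to 3440 at P5 and 601 to 779 at P10. Whether these lists bear on the fall was not tested. Of the 9 genes, 5 were still called when P10 array 2 or P5 array 1 was left out or only the P5 and P10 arrays were fitted, and 6 without P5 array 2 or P10 array 3. Calls were gained for F8 without P5 array 1 and for Pros1 and Tfpi without P10 array 3. Without P5 arrays 2 and 3 together, 1 of the 9 was called. Kng1, Plg and F2r were called lower in all of the other 19 alternatives, the omissions of 1 array included. P10 array 2 had the lowest P10 value of F2, F5, Fga, Fgb, Fgg, Kng1, Plg and F2r.

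Other genes of the pathway, 22 of 25 listed, went both ways too. At P5, 6 were higher and 4 lower, and at P10, 4 were higher and 6 lower, with medians of 0.21 and -0.09. Among all genes 17.9% were called higher and 17.7% lower at P5, and 20.1% and 18.6% at P10, so the 4 of 22 (18.2%) lower at P5 and the 4 higher at P10 were near the share of all genes. Hrg, the gene of histidine-rich glycoprotein, which binds plasminogen and heparin, had an E15.5 mean of 5.52 ± 0.27 (SD, n = 3) and rose by 6.44 ± 0.13 at P5 and 5.78 ± 0.13 at P10. Fgl1, the gene of a fibrinogen-like liver protein, rose by 6.17 ± 0.33 and 5.93 ± 0.33. C4bp, the gene of the complement regulator C4b-binding protein, rose by 3.16 ± 0.17 and 3.30 ± 0.17. Apoh, the gene of beta 2-glycoprotein I, rose by 1.17 ± 0.12 at P5. A2m, the gene of a broad protease inhibitor, fell (-1.90 ± 0.14 at P5 and -3.03 ± 0.14 at P10). Adamts13, the gene of the protease that cuts von Willebrand factor and a known product of stellate cells, fell (-1.72 ± 0.20 and -1.94 ± 0.20). Plgrkt, Anxa2 and S100a10, whose products bind plasminogen at the cell surface, fell at P10 (differences of -1.50 ± 0.20, -1.21 ± 0.11 and -1.14 ± 0.15). From P5 to P10, 6 of the 22 genes were lower and 0 higher by limma (0 higher at an unadjusted p under 0.05), against 2.89% and 2.76% of all genes. That count of 6 was 1 without P5 array 2 or P10 array 3 and 3 without P5 array 1, P5 array 3, P10 array 1 or P10 array 2.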

How the data were processed

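RNA of sorted liver cells was labelled as biotinylated cRNA and measured on Affymetrix arrays, per the labels' protocols. The deposited values are log2 signals from RMA (background correction, quantile normalisation and summary per probe set), made by the authors with Affymetrix Expression Console and Transcriptome Analysis Console 2.0, per the submitters' processing notes. For the probe annotation, the build was not given in the sources used here. Array medians over 35556 probe sets were 6.44 to 6.45 at E15.5, 6.27 to 6.36 at P5 and 6.22 to 6.26 at P10. They thus differed with stage, and the number of arrays limits the precision. Of the probe sets, 21789 had 1 symbol, 1621 several and 12146 none in the annotation used. Of 19938 genes each took its probe set with the highest mean, without filter or further scaling.

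Stage was the only term of linear models over 9 arrays in limma 3.58.1 under R 4.3.3, with 2-sided moderated tests, tested on simulated data first. Arrays of 1 stage correlated at r = 0.983 to 0.993, and arrays of different stages at r = 0.901 to 0.985. Same-numbered arrays of different stages were not alike (residual r from -0.079 to 0.069, with 0 of 9 such pairs above 0.1), and no pairing was used. Equal values on a pair of arrays, which lower an SD, made up 2.61% to 4.96% of probe sets. The genes and lists were chosen with earlier results of these data known. By the rule for named genes, each array's values are given for listed genes called with a difference of at least 1 (log2), and other pathway genes past that size are named with their differences. Values of F5, F8, Fga, Fgb, Fgg, Kng1, Plg and Vkorc1, and of the marker Stab2, were added after they were seen. Alternatives were other scalings, a filter, a floor, probe set means, other variance models, 2-stage fits, array weights, the replicate number as a block and leaving out arrays. Figures were drawn with matplotlib 3.10.9.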

Additional observations from a re-analysis of the deposited data

How the results depend on the processing

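No difference of a member gene changed its direction with a call under any alternative. The counts of genes called higher and lower at P5 and at P10 against E15.5 stayed within 1.5 times their values in every alternative (14 to 21 and 6 to 7 at P5, 9 to 13 and 9 to 12 at P10). The fall from P5 to P10 was the weaker result. The count of 9 became 5 with only the 2 stages compared and 5 to 9 when 1 array was left out, new calls included. Of the 9 genes themselves, 5 to 8 stayed called when 1 array was left out, and F3 was lost each time. Leaving out P5 arrays 2 and 3 together, a setting picked once the data had been seen, left 1 P5 array and no spread at P5. The differences of the 9 genes then ran from -0.87 (F5) to -0.37 (Fgg). Fewer arrays enter these fits. Among the other pathway genes, the 10 called at P10 against E15.5 became 16 after quantile normalisation, for which the cause was not tested. The 6 called from P5 to P10 became 3 with only the 2 stages compared, 1 to 6 when 1 array was left out and 0 by limma without P5 arrays 2 and 3 (9 at an unadjusted p under 0.05). With the replicate number as a block, 20 genes were higher and 7 lower at P5, 11 and 9 at P10, and 7 lower from P5 to P10. Quantile normalisation moved the median of all genes to 0.12 at P5 and 0.15 at P10, from 0.03 and 0.02, and the share of higher calls among all genes from 50.2% to 64.1% and from 51.8% to 69.4%. Signals near the top or the bottom of the scale limit what differences can show.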
